A study of Mus musculus with 6 samples.

Results

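Kruppel-like factors (KLFs) are transcription factors that bind GC-rich and CACCC sequences through 3 zinc fingers of the C2H2 type. Of the 39179 genes in the count table, 8 were followed here in tumor-associated macrophages (TAMs), namely Klf2, Klf3, Klf4, Klf6, Klf7, Klf9, Klf10 and Klf13. They were matched by gene symbol and chosen from the TMM-scaled counts of the same 6 libraries with the difference between the groups already known, so their levels and fold changes are a description. How many of them passed a threshold is given only beside the share of all genes that did, and is no evidence of a difference. All 8 passed the filter on low counts that left 8793 genes for testing, and Klf9 passed it on the strength of a few libraries only. TAMs came from C57BL/6 mice, 8 weeks old, implanted with a BRAF-mutant melanoma line whose cells were either Ptgs-competent or Ptgs-deficient. The second kind of tumor cell lacked Ptgs1 and Ptgs2, the genes of the cyclooxygenases COX-1 and COX-2 that start prostaglandin synthesis. The macrophages themselves were of host genotype in both groups, so the sorted cells offer no direct check of the edit. The gate took live CD45+ CD11b+ F4/80+ cells that were NK1.1-, Ly6G- and Ly6C- or Ly6C dim, each library was a pool of several tumors, and 3 libraries represented each group. The p-values given for other genes therefore measure the spread between 3 pools a group.

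In myeloid cells the family is known for opposing roles. Klf2 is a factor of quiescence that restrains inflammatory activation of monocytes and endothelial cells, Klf4 takes part in monocyte differentiation and acts with STAT6 in alternative (M2) activation of macrophages, and Klf6 is known to assist NF-kappaB and to favor inflammatory genes. Klf10 is induced by TGF-beta, Klf9 by glucocorticoids, Klf3 represses through the corepressor CtBP, Klf13 was described as an activator of the Ccl5 gene in T cells, and Klf7 is broadly expressed. Klf2, Klf4 and Klf6 are also known to respond within minutes to hours to stimulation and to tissue dissociation, as Fos, Jun and Egr1 do.

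The start regions of the 3 most abundant members are shown because the library difference was greatest in read number for these genes and because their motif letters differ. Sequences were taken from RefSeq promoters on GRCm38.p6, which held 7 of the 8 members (Klf10 was not matched). Each is read 5′ to 3′ on the strand of its gene, with capitals marking every match on either strand to 6 motifs, and it ends before the first base of the gene in both RefSeq and GENCODE M21. The motifs were the GC box GGGCGG, the CACCC box CACCC, the cyclic AMP response half-site TGACG, the CCAAT box CCAAT, the TATA box TATAAA and the MEF2 consensus. Klf2 lies on chr8:72318812-72319032, plus strand, Klf4 on chr4:55532476-55532725, minus strand, and Klf6 on chr13:5861239-5861481, plus strand.
Klf2: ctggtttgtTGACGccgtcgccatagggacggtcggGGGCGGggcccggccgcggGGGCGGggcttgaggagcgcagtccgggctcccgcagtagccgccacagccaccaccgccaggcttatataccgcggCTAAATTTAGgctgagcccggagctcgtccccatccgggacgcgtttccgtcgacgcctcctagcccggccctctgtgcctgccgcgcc
Klf4: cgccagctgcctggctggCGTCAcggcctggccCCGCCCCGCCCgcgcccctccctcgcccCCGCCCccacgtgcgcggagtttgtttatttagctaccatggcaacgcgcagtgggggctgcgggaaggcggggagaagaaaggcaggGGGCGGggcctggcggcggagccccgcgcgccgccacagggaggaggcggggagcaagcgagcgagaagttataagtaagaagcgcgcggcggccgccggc
Klf6: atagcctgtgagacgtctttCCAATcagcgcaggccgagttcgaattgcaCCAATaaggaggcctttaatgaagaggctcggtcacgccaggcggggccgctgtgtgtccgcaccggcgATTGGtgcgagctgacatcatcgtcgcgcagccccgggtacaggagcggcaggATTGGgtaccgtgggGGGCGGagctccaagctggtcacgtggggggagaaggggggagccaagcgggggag

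In the 250 bases before the RefSeq start, the Klf2 promoter held 2 GC boxes, a CACCC match that lies past the GENCODE start and is not printed, 1 cyclic AMP half-site from 241 to 237 bases before the start, and 1 MEF2 consensus from 118 to 109 bases before it. The Klf4 window held 4 GC boxes, 2 of which share a base, and 1 cyclic AMP half-site from 232 to 228 bases before the start. The Klf6 window held 1 GC box and 4 CCAAT boxes. Among 32851 promoters of 27025 genes, the same window held a GC box in 32.7%, a CACCC box in 52.0%, TGACG in 17.8%, CCAAT in 33.8%, TATAAA in 12.4% and the MEF2 consensus in 2.92%. Of the other members, Klf3 had 6 GC boxes and 5 CACCC boxes, Klf13 had 3 GC boxes, 1 CACCC box, 1 TGACG and 2 CCAAT boxes, Klf7 had 1 GC box and 3 CACCC boxes, and Klf9 had 1 CACCC box, 1 TGACG and 3 CCAAT boxes. Matches of different motifs overlapped at 1 place each in Klf3 and Klf13. The MEF2 consensus was found only in Klf2 among the 7 windows. These matches are letters in a window, and no binding was measured here.

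Library totals ran from 4431184 to 8760679 reads, with 7794 to 10714 genes detected, so that 3 counts, the limit used for a count of 0, stood at 0.357 to 0.647 CPM. The values below are CPM, read counts relative to the library's reads in the tested genes and scaled by edgeR's TMM factors. Reads came from the 3′ end of transcripts and do not scale with length, so levels of different genes could be set side by side on this scale without a length term, although priming can differ between genes. The Ptgs-competent replicate 3 library stood apart in the summed CPM of 11 macrophage markers, at 6283 against 16190 and 17453 in the other libraries of its group and 19858, 19261 and 23018 in those from Ptgs-deficient tumors. In that library Csf1r, the receptor of the macrophage growth factor M-CSF, named after its values were seen, was at 231 CPM against 1379 and 1559. As in any bulk sample, fewer cells of a type and less RNA per cell cannot be told apart in these values.

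Klf2, Klf4 and Klf6 had higher levels in all 3 Ptgs-deficient libraries than in any Ptgs-competent library. Klf7 and Klf13 had lower ones, and Klf10, Klf3 and Klf9 overlapped. Without overlap, 3 members were higher and 2 were lower, where 11% (970 genes) and 8.01% (704 genes) of all tested genes did the same. By the edgeR quasi-likelihood test with Benjamini-Hochberg adjustment, at an adjusted p of 0.05 and an absolute log2 fold change of 1.5, 0 of the 8 members were called, beside 0.216% of all genes (19 of 8793, 14 higher and 5 lower). Unadjusted p-values fell under 0.05 for 4 members (Klf2, Klf4, Klf6 and Klf7) and for 8.83% of all genes. Since this contrast chose the members, nothing is read from these numbers.

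Klf2 stood at 64.1, 148 and 109 CPM in Ptgs-competent libraries and at 500.1, 542 and 487 CPM in Ptgs-deficient libraries. The lowest deficient library was 3.29 times the highest competent one, the widest gap in the family. The means were 107 ± 42.0 and 509.8 ± 28.6 CPM (SD, n = 3 each), a 4.77-fold difference, and the fitted log2 fold change was 2.25 ± 0.387 (SE). Leaving out 1 library at a time moved it between 1.99 and 2.56, and it was 2.32 without the Ptgs-competent replicate 3 library. The gene rests on 402 to 4552 reads a library.

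Klf4 stood at 249, 319 and 164 CPM in Ptgs-competent libraries and at 1092, 918 and 710.0 CPM in Ptgs-deficient libraries. All 3 deficient libraries lay above all 3 competent ones, by at least 2.23 times. The means were 244 ± 77.3 and 907 ± 191 CPM (SD, n = 3), 3.72-fold apart, with a log2 fold change of 1.89 ± 0.358 (SE). It ran from 1.73 to 2.13 with 1 library left out, the lowest being without the Ptgs-competent replicate 3 library.

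Klf6 had the highest mean level of the members in both groups, at 724, 462 and 359.8 CPM against 913, 1573 and 1369 CPM. The groups did not overlap, but the highest competent library and the lowest deficient library were only 1.26 times apart. In that lowest deficient library, replicate 1, Klf4 lay above Klf6. The means were 515 ± 188 and 1285 ± 338 CPM (SD, n = 3), a 2.49-fold difference, and the log2 fold change was 1.32 ± 0.364 (SE), with 1.15 to 1.65 when 1 library was left out and 1.16 without the Ptgs-competent replicate 3 library.

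Klf7 ran the other way, at 145, 175 and 151 CPM in Ptgs-competent libraries against 56.2, 61.9 and 82.2 CPM in Ptgs-deficient ones. Every deficient library was below every competent one. The means were 157 ± 16.1 and 66.8 ± 13.6 CPM (SD, n = 3), 2.35 times higher in the competent group, with a log2 fold change of -1.23 ± 0.440 (SE) that stayed between -1.40 and -1.09 when 1 library was left out. Klf13 had 209, 131 and 142 CPM against 111, 105 and 103 CPM. The groups did not overlap, but the gap was small, and the log2 fold change was -0.60 ± 0.409 (SE), moving to -0.36 without the Ptgs-competent replicate 1 library.

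**Figure D1:**
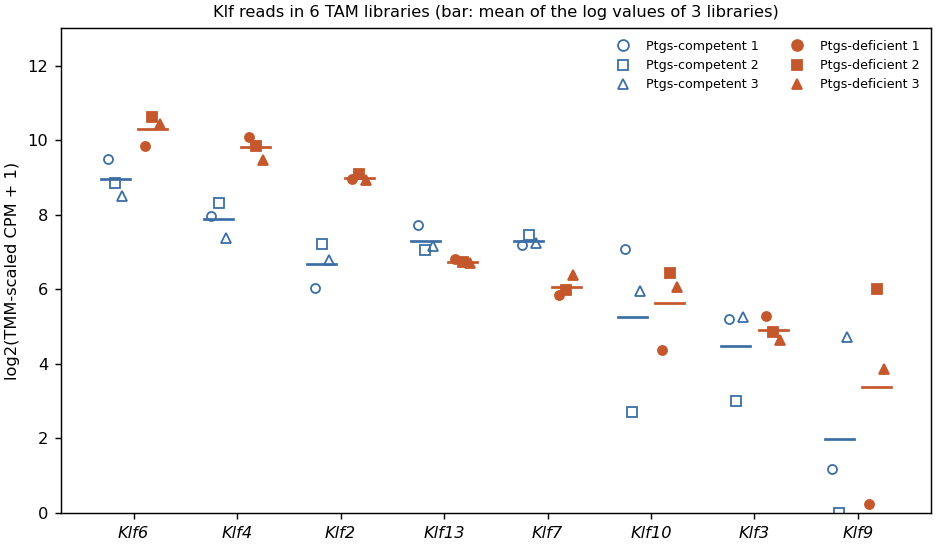
TMM-scaled CPM of the 8 genes on a log2(CPM + 1) axis in the 3 Ptgs-competent (open) and 3 Ptgs-deficient (filled) libraries, ordered by mean level, with bars at the mean of the log values. Klf6, Klf4 and Klf2 separate upward in the Ptgs-deficient libraries, Klf13 and Klf7 downward, and Klf10, Klf3 and Klf9 overlap.

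The remaining members overlapped between the groups and spread widely within them. Klf10 was at 135, 5.58 and 61.2 CPM in Ptgs-competent libraries and at 19.5, 86.1 and 65.6 CPM in Ptgs-deficient libraries. The highest and the lowest of all 6 libraries both belonged to the competent group, 24.2 times apart. Its log2 fold change was -0.24 ± 1.01 (SE), and it turned to 0.78 without the Ptgs-competent replicate 1 library and to 0.19 without the Ptgs-deficient replicate 1 library. Klf3 was at 35.7, 7.06 and 37.3 CPM against 37.6, 27.9 and 23.8 CPM, with the lowest value in Ptgs-competent replicate 2. The log2 fold change was 0.16 ± 1.20 (SE), -0.29 without that library and -0.022 without Ptgs-deficient replicate 1.

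Klf9 was the rarest member, with 8, 0 and 118 reads in Ptgs-competent libraries and 1, 529 and 66 reads in Ptgs-deficient ones, or 1.28, 0 and 25.4 CPM against 0.182, 63.0 and 13.7 CPM. Libraries near 0 occurred in both groups. The log2 fold change of 1.52 ± 2.40 (SE) became -0.36 without the Ptgs-deficient replicate 2 library and 5.32 without the Ptgs-competent replicate 3 library. On the log2 CPM scale the SD within each group, 3.17 and 3.55, exceeded that difference.

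**Figure D2:**
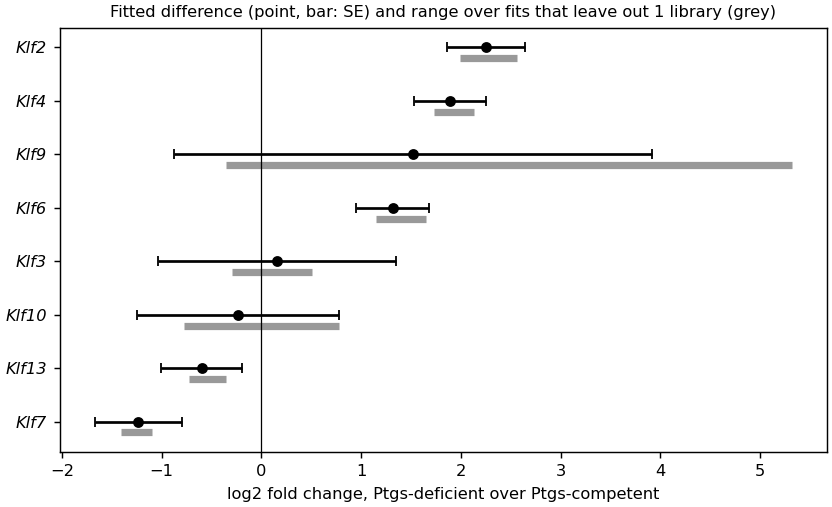
Fitted log2 fold change of each member, Ptgs-deficient over Ptgs-competent, with its SE (black) and the range over 6 fits that each leave out 1 library (grey). The ranges of Klf2, Klf4 and Klf6 lie above 0, those of Klf7 and Klf13 below it, and those of Klf9, Klf3 and Klf10 cross it.

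The spread of several members was small in 1 group only. Klf2 varied over the Ptgs-deficient libraries with an SD of 0.080 on the log2 CPM scale, and Klf13 with 0.059, against a median of 0.461 over 3336 genes of mean log2 CPM of 5 or more. Smaller SDs were seen for 2.19% and 0.929% of those genes. In the Ptgs-competent libraries, where the median was 0.680, Klf2 had an SD of 0.609 and Klf13 of 0.361. Klf7 had 0.145 there and 0.283 in the Ptgs-deficient libraries. Klf10 had 2.35 and 1.13 in the competent and deficient groups and Klf9 had 3.17 and 3.55.

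The order of mean levels in Ptgs-competent libraries was Klf6, Klf4, Klf13, Klf7, Klf2, Klf10, Klf3 and Klf9. Of the neighbors in that order, only Klf6 and Klf4 had ranges that did not overlap. Klf4 was nevertheless above Klf13, Klf7 above Klf2 and Klf3 above Klf9 in each of the 3 libraries, whereas Klf13 was above Klf7 in 1 of 3, and Klf2 above Klf10 and Klf10 above Klf3 in 2 of 3. In Ptgs-deficient libraries Klf2 came after Klf4 and before Klf13 and Klf7, with the rest in the same places. There the ranges of Klf4 and Klf2, of Klf2 and Klf13, and of Klf13 and Klf7 did not overlap, whereas the ranges of the other neighbors overlapped, and each of those pairs kept its order in 2 of 3 libraries.

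In these libraries the composition of the family differed with the group. The shares below were picked and summed with the direction of each gene known, so their separation is no evidence of a difference. The CPM of all 17 Klf genes summed to 1625, 1291 and 1139 in Ptgs-competent libraries and to 2751, 3437 and 2880 in Ptgs-deficient ones, means of 1351 ± 249 and 3023 ± 365 (SD, n = 3). Klf2, Klf4 and Klf6 together made up 63.8%, 72.0% and 55.6% of it against 91.1%, 88.2% and 89.1%. The share of Klf7 was 8.91%, 13.6% and 13.2% against 2.04%, 1.80% and 2.85%, and that of Klf13 was 12.9%, 10.1% and 12.5% against 4.04%, 3.04% and 3.57%. For the summed share and for these 2 genes the groups did not overlap. Of the 3 summed genes, only Klf2 separated by its own share, at 3.94%, 11.5% and 9.54% against 18.2%, 15.8% and 16.9%. The share of Klf4 overlapped by a narrow margin, at 15.3%, 24.68% and 14.4% against 39.7%, 26.7% and 24.65%, and that of Klf6 overlapped, at 44.6%, 35.8% and 31.6% against 33.2%, 45.8% and 47.5%.

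Ratios within a library do not depend on the scaling of libraries. The reads of Klf2 were 0.443, 0.845 and 0.721 times those of Klf7 in Ptgs-competent libraries and 8.90, 8.75 and 5.93 times in Ptgs-deficient libraries. The ratio of Klf4 to Klf7 was 1.72, 1.82 and 1.09 against 19.4, 14.8 and 8.64. In both ratios the lowest deficient library was several times above the highest competent one. These pairs were formed from members whose opposite directions were already known, so their separation is a description and no evidence of a difference. The ratio of Klf4 to Klf2, by contrast, overlapped, at 3.89, 2.15 and 1.51 against 2.18, 1.69 and 1.46.

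**Figure D3:**
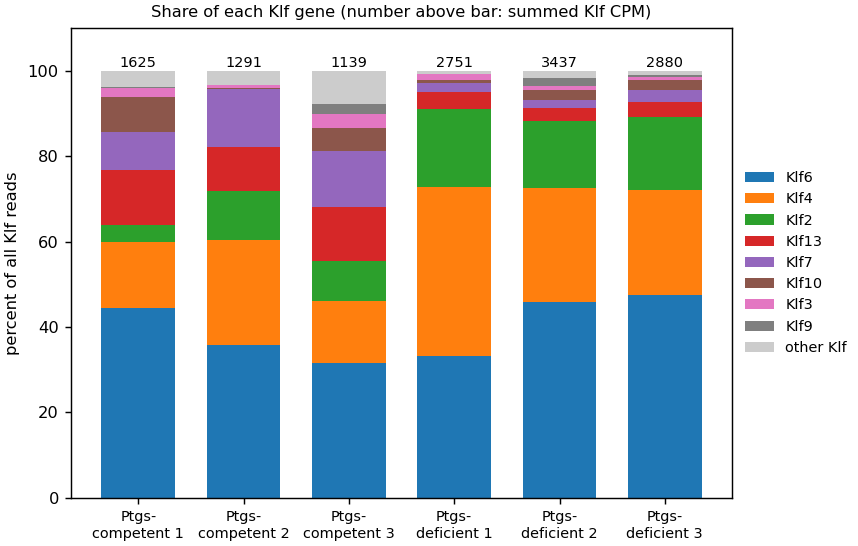
Share of each gene in the CPM of all Klf genes, in percent, for the 6 libraries, with the summed CPM above each bar. Klf2, Klf4 and Klf6 fill 55.6% to 72.0% of the Ptgs-competent bars and 88.2% to 91.1% of the Ptgs-deficient bars.

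The macrophage marker sum moved with these levels, so the members were also divided by it, an alternative chosen after seeing the data. Of 12 listed markers 11 were used, 9 had a positive fitted fold change, 3 had an unadjusted p under 0.05 and 0 were called by the quasi-likelihood test, the likelihood ratio test or DESeq2. The smallest p-values were those of Itgam, the CD11b gene (log2 fold change 1.16 ± 0.336, adjusted p = 0.261), and C1qb, a complement subunit (1.08 ± 0.364, adjusted p = 0.35). Per 1000 marker reads, Klf2 stood at 3.96, 8.48 and 17.3 against 25.2, 28.1 and 21.2, and Klf4 at 15.4, 18.3 and 26.1 against 55.0, 47.6 and 30.8. Both stayed without overlap, but the Ptgs-competent replicate 3 library, with few marker reads, came closest to the deficient libraries. On this scale Klf6 overlapped, at 44.7, 26.5 and 57.3 against 46.0, 81.7 and 59.5. Klf7 was at 8.94, 10.0 and 24.0 against 2.83, 3.21 and 3.57, and Klf13 at 12.9, 7.49 and 22.6 against 5.60, 5.43 and 4.47. The part of macrophage content in the members' levels was not tested.

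**Figure D4:**
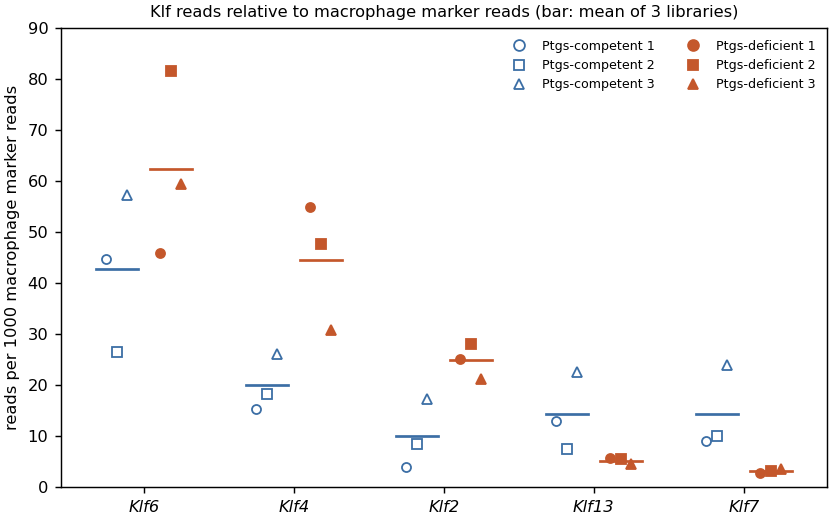
Reads of the 5 members that did not overlap in CPM, per 1000 reads of 11 macrophage markers, by library, with bars at the means of 3 libraries. Klf4 and Klf2 remain higher and Klf13 and Klf7 lower in the Ptgs-deficient libraries, whereas Klf6 overlaps.

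Markers of cells outside the gate were low beside the macrophage markers and moved with the groups. The summed CPM of 8 fibroblast markers was 157 to 349 in Ptgs-competent libraries and 15.9 to 51.2 in Ptgs-deficient ones, and that of 8 endothelial markers 103 to 197 against 22.3 to 65.1, with 5 of the 8 at 0 in all libraries, among them Cdh5, the cadherin that defines endothelium. Col1a2 and Col3a1, collagens of fibroblasts, had log2 fold changes of -2.86 ± 1.28 and -3.43 ± 1.60, and Pecam1 and Kdr, surface proteins of endothelium, -1.70 ± 0.682 and -0.51 ± 2.87. Of 8 melanoma markers 7 were at 0, and Mitf, also a macrophage gene, was at 1.91, 0 and 0.647 against 10.6, 44.3 and 18.2 CPM. Neutrophil markers summed to 578 to 631 against 225 to 379.7 CPM, with Ly6g at 0 and with S100a8 and S100a9 at log2 fold changes of -1.07 ± 0.445 and -0.74 ± 0.361. NK and T cell markers summed to 2.13 to 2.23 against 16.8 to 33.1 CPM, and B cell markers to 0 to 26.8 against 15.0 to 106 CPM. Klrk1, the NKG2D receptor, was at 0, 0 and 0 against 26.3, 4.29 and 16.1 CPM, Ighm, the IgM heavy chain, at 0, 0 and 0 against 15.0, 16.3 and 89.6 CPM, and Cd79b overlapped. None of these marker genes was called by the quasi-likelihood test, while the likelihood ratio test and DESeq2 called Klrk1 and Ighm higher and Krt18, an epithelial keratin, lower. The summed CPM of 6 epithelial markers was 14.2, 25.3 and 114 against 0, 0 and 3.93, highest in the Ptgs-competent replicate 3 library. Klf2 is also known from endothelium and lymphocytes. The endothelial sum was lower and the NK and T cell sum higher in the libraries in which Klf2 was higher, and the part of these cells in the Klf2 level was not tested.

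Of the other Klf and Sp genes, 18 were listed, 10 had 0 counts in all 6 libraries and 5 were tested (Klf11, Klf16, Sp1, Sp2 and Sp3). None of the 5 was called, none had an unadjusted p under 0.05 and none was called by DESeq2 or the likelihood ratio test. Klf11, a TGF-beta-inducible relative of Klf10, was at 38.1, 21.2 and 0 against 20.8, 38.2 and 6.00 CPM. Sp1, the ubiquitous GC-box factor, was at 69.0, 19.4 and 18.8 against 16.1, 48.5 and 29.0 CPM. Their groups overlapped, and Klf16, Sp2 and Sp3 had libraries under 1 CPM in both groups. Klf5, a factor of proliferating epithelium named here after its values were seen, had 4, 134 and 414 reads in Ptgs-competent libraries and 0 in each Ptgs-deficient library, which did not pass the filter. In the same libraries Krt18, a keratin of simple epithelium, was at 7.65, 25.3 and 30.0 against 0, 0 and 0 CPM, and the part of epithelial cells in the Klf5 reads was not tested.

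The partners and regulators of KLF proteins were taken from lists. These and the lists that follow were chosen with earlier results of these data known, so their counts and p-values are descriptive. Of 11 tested cofactors, 4 were fitted higher and 7 lower, 1 had an unadjusted p under 0.05 and 0 were called by the quasi-likelihood test, the likelihood ratio test or DESeq2. Ncor1, a corepressor, was at 149, 277 and 287 against 32.3, 108 and 68.9 CPM, or -1.77 ± 0.524 as a log2 fold change (SE), and the adjusted p was 0.27 by edgeR's quasi-likelihood test. Ctbp1, the CtBP corepressor that Klf3 recruits, had 94.2, 179 and 121 against 23.2, 100.4 and 147 CPM (log2 fold change -0.54 ± 0.646). Only the groups of Ncor1 did not overlap.

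Of 9 tested genes upstream of Klf2 and Klf4, which hold the ERK5, MEF2, CCM and FOXO genes, 4 were fitted higher and 5 lower, and 0 were called by any of these 3 tests or had an unadjusted p under 0.05. Mapk7, which encodes ERK5, the kinase known to drive Klf2 and Klf4 through MEF2, was at 27.9, 22.2 and 44.8 against 30.1, 26.6 and 38.1 CPM. Mef2c, an ERK5-activated factor, was at 41.0, 32.0 and 34.5 against 98.2, 45.3 and 31.9 CPM. Both overlapped between the groups, and they are named here after their values were seen. The smallest p-values of the list were those of Ccm2 (log2 fold change 1.21 ± 0.812, adjusted p = 0.92) and Foxo1 (-2.90 ± 2.59, adjusted p = 0.9995). Of 4 tested ubiquitin ligases of KLF proteins, 0 were called by the quasi-likelihood or likelihood ratio test, while 1 (Wwp1) had an unadjusted p under 0.05 and was called by DESeq2. Wwp1, which marks Klf2 for degradation, was at 33.9, 6.89 and 17.5 against 106, 118 and 121 CPM, without overlap (log2 fold change 2.56 ± 0.742, adjusted p = 0.258). DESeq2 gave an adjusted p of 0.031 for Wwp1, within 0.031 to 0.734 over its alternatives. Smurf1 had a log2 fold change of -1.42 ± 1.76 (adjusted p = 0.9995).

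Among 6 tested genes of alternative activation linked to Klf4, 5 were fitted higher, of which 3 did not overlap, 2 had an unadjusted p under 0.05 and 1 was called. The lower gene was Il4ra, the IL-4 receptor chain that signals to STAT6, named after its values were seen. It was at 1491, 1319 and 789.6 against 762, 639.9 and 734 CPM, lower without overlap (log2 fold change -0.75 ± 0.323, adjusted p = 0.515 by edgeR's quasi-likelihood test, unadjusted p under 0.05). Retnla, which encodes the M2 marker RELM-alpha, was at 636, 676 and 713 against 6422, 9203 and 14796 CPM, or 3.91 ± 0.405 as a log2 fold change (SE), and the adjusted p was 0.00453 by edgeR's quasi-likelihood test. All 3 deficient libraries lay above the competent ones. Without the Ptgs-competent replicate 1 library the adjusted p was 0.0568, which ends the call, and over all alternatives it ran from 1.03e-32 to that value. Mrc1, the mannose receptor, was at 512, 516 and 238 against 888, 811 and 820.5 CPM (log2 fold change 0.99 ± 0.359, adjusted p = 0.376), where the Ptgs-competent replicate 3 library was lowest.

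The 3 tested genes linked to Klf2 were all fitted higher, and 0 were called by any of the 3 tests or had an unadjusted p under 0.05. Thbd, the anticoagulant receptor thrombomodulin, was at 14.2, 0 and 0 against 66.1, 32.7 and 25.9 CPM (log2 fold change 3.13 ± 2.20, adjusted p = 0.94). S1pr1, the sphingosine phosphate receptor that Klf2 induces in T cells, was at 4.62, 0 and 22.6 against 72.4, 27.4 and 3.31 CPM (1.92 ± 2.01, adjusted p = 0.9995). The groups of Thbd did not overlap and those of S1pr1 did.

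The list of inflammation genes linked to Klf6 had 8 tested genes, among them the repressor genes Bcl6 and Prdm1, which are not themselves inflammatory mediators. Of these 8, 1 was fitted higher, 7 lower and 0 were called by the quasi-likelihood test. Only 1 (Ccl2) had an unadjusted p under 0.05, and it was called by the likelihood ratio test and DESeq2. Ccl2, the monocyte chemokine, was at 98.8, 216 and 208 against 391, 1581 and 933 CPM, without overlap (log2 fold change 2.47 ± 0.529, adjusted p = 0.111, and 1.02e-06 to 0.426 over the alternatives). Hif1a, the hypoxia factor, was at 65.0, 85.2 and 104 against 23.2, 51.4 and 22.8 CPM (-1.38 ± 0.701, adjusted p = 0.704). Hif1a was lower without overlap, as was Prdm1, the gene of the repressor Blimp-1, named after its values were seen, at 33.0, 51.4 and 58.6 against 13.3, 9.17 and 24.0 CPM. The groups of the other 5 genes overlapped.

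The lists of the signals known to induce Klf9 and Klf10 had 0 calls each by the quasi-likelihood test. Of 7 tested glucocorticoid-responsive genes 3 were fitted higher and 4 lower, 2 had an unadjusted p under 0.05, and 1 (Ddit4) was called by the likelihood ratio test and DESeq2. Ddit4, an mTORC1 inhibitor, was at 1372, 941 and 745 against 289, 78.7 and 55.7 CPM (log2 fold change -2.85 ± 0.609, adjusted p = 0.111, and 7.40e-09 to 0.425 over the alternatives). Cd163, the hemoglobin scavenger receptor, was at 147, 188 and 59.1 against 415, 305 and 348 CPM (1.44 ± 0.453, adjusted p = 0.30). Neither gene overlapped between the groups, and they ran opposite ways. Of 12 tested TGF-beta signalling genes 5 were fitted higher and 7 lower, 2 had an unadjusted p under 0.05, and 0 were called by either of the other tests. Tgfbr2, the type II receptor, was at 64.1, 17.7 and 23.7 against 131, 88.8 and 96.8 CPM (1.59 ± 0.689, adjusted p = 0.529), and Tgfbi, a TGF-beta-induced matrix protein, at 3451, 1957 and 873 against 1113, 883 and 1135 CPM (-1.005 ± 0.449, adjusted p = 0.562).

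The list of immediate-early genes and genes of the dissociation response was mostly higher where Klf2, Klf4 and Klf6 were. Of 17 tested genes, 16 were fitted higher in Ptgs-deficient libraries, 15 did so without overlap, and the median log2 fold change was 1.53, beside 0.018 over all tested genes. By the quasi-likelihood test 0 were called and 14 had an unadjusted p under 0.05, all higher, and the likelihood ratio test and DESeq2 each called 7. Egr1, an early zinc finger factor, was at 178, 215 and 299.6 against 615, 1149.8 and 1219.8 CPM (log2 fold change 2.11 ± 0.379, adjusted p = 0.0762, and 2.91e-05 to 0.325 over the alternatives). Fosb, an AP-1 subunit, was at 181, 69.1 and 123 against 451, 643 and 686 CPM (2.26 ± 0.418, adjusted p = 0.0762, and 5.85e-05 to 0.334). Both separated the groups in full. The exception was Ier3, at 3044, 2502 and 1582 against 2092, 1461 and 1000.5 CPM, named after its values were seen. The CPM of the whole list summed to 6332 to 10686 in Ptgs-competent and 15933 to 16590 in Ptgs-deficient libraries. The part of cell handling or stimulation in the levels of Klf2, Klf4 and Klf6 was not tested.

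**Figure D5:**
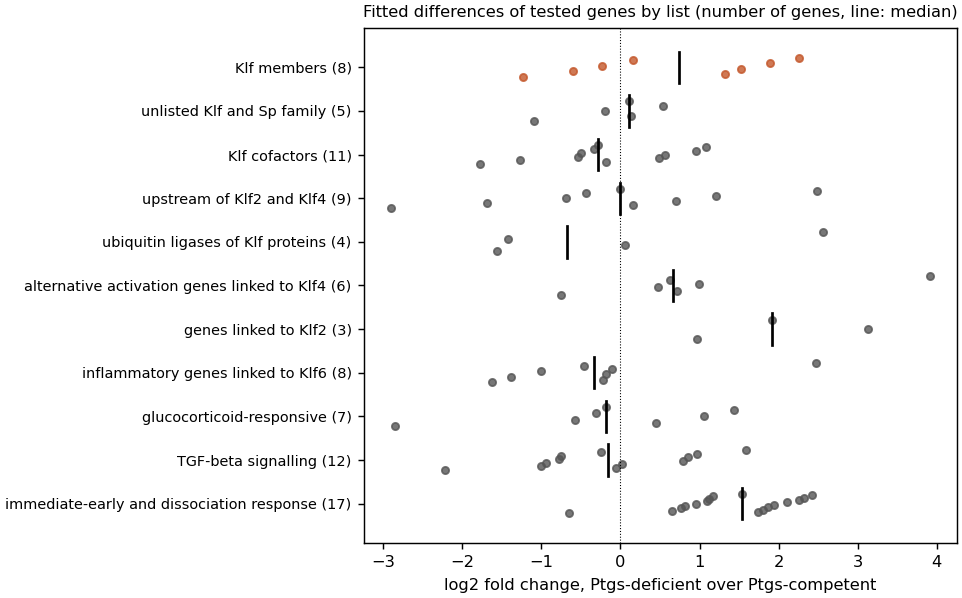
Fitted log2 fold change, Ptgs-deficient over Ptgs-competent, of the 8 Klf members (orange) and of the tested genes of 10 lists (grey), with the number of genes in brackets and a line at the median. In the immediate-early list 16 of 17 points lie above 0, whereas the cofactor, upstream and TGF-beta lists lie on both sides of it.

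The genes most like the 3 most abundant members were sought among 3335 genes by Pearson's r of log2 CPM over the 6 libraries, in which the 2 groups themselves set much of the pattern. For Klf6 they were Fos, Idh2, Zfp36, Rab31 and Cst3, with r of 0.990 to 0.995. Fos ran with Klf6 within the competent group as well as between groups, at 685, 288 and 202 CPM against 795, 1704 and 1581 CPM. For Klf4 they were Sdcbp, Ehd4, Hspa1a, Parp12 and Gda (0.974 to 0.988), and for Klf2 Ly6a, Cd83, C4b, Mgl2 and Ccl8 (0.982 to 0.990). Mean levels of Mgl2, a macrophage galactose lectin, were 27.9 and 251 CPM, and those of Ccl8, a monocyte chemokine, 131 and 1469.5 CPM, in Ptgs-competent and Ptgs-deficient libraries.

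Other count models called Klf2 and Klf4, 2 of the 8 members, and no other member. Nothing is read from these calls either. They were made by the likelihood ratio test (background 2.74% of all genes), DESeq2 (3.73%), the fit without a filter on low counts (1.89%), the fit with a replicate block (0.876%) and voom with sample weights (1.40%). No member was called when any single library was left out or when the libraries were scaled by RLE or by their totals alone. The genes lie, on GRCm38 in GENCODE M21, at chr8:72319033-72321656 (Klf2, plus strand), chr4:55527143-55532466 (Klf4, minus), chr13:5861482-5870394 (Klf6, plus), chr1:64029447-64122282 (Klf7, minus), chr7:63886351-63938915 (Klf13, minus), chr15:38291463-38300706 (Klf10, minus), chr5:64803388-64832901 (Klf3, plus) and chr19:23141226-23168134 (Klf9, plus). All are protein-coding. Annotated genes overlap Klf7, Klf3, Klf13 and Klf9, and the 7 of these analysed here had 0 counts. A gene's count sums its 3′ reads and was not placed in an exon or UTR.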

How the data were processed

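The authors deposited a table of raw read counts per gene for 6 libraries, made from 800 pg of total RNA with the QuantSeq 3′ FWD kit. Reads were trimmed, aligned with STAR to GRCm38 and assigned to genes with featureCounts under an earlier annotation release of that assembly than the GENCODE M21 used here for positions. Tool versions, the strand setting, the treatment of reads with several alignments and molecular identifiers were not given in the sources used here, so PCR copies cannot be told from molecules, and antisense or paralog reads may be shared. Limits from counts of 0 cover counting error only.

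The members and gene lists were chosen with earlier results of these data known. The tests used edgeR 4.0.16 under R 4.3.3. Genes passing filterByExpr (minimum count 10, total 15) numbered 8793. Libraries were scaled by TMM, and groups were compared by the two-sided quasi-likelihood test with Benjamini-Hochberg adjustment over all tested genes. Calls needed an adjusted p of 0.05 or less and an absolute log2 fold change of 1.5 or more. Log2 CPM used a prior count of 2. Named were all members, other tested Klf and Sp genes, the called genes and the 2 genes of smallest p of each list, and the 5 genes most correlated with each of the 3 most abundant members. Exceptions are stated. Alternatives were RLE scaling, totals alone, no filter, the likelihood ratio test, DESeq2 1.42.0, limma 3.58.1 voom with sample weights, a replicate block and each library left out. The tests were run on simulated data first.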

Additional observations from a re-analysis of the deposited data

How the results depend on the processing

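The number of genes called, 19 by the quasi-likelihood test, was 241 by the likelihood ratio test, 328 by DESeq2, 252 without a filter on low counts, 123 by voom with sample weights and 0 to 25 with 1 library left out (0 without the Ptgs-competent replicate 1 library, 11 without Ptgs-competent replicate 2, and 2, 4 and 3 without Ptgs-deficient replicates 1, 2 and 3). Of the 8 members, 2 (Klf2 and Klf4) were called by each of these 4 other fits, and 0 with any library left out. Deviations from the group means correlated at -0.049, -0.022 and -0.022 between libraries of the same replicate number. Between libraries of different numbers they correlated at -0.017 to 0.045. No pairing was visible, but these values cannot exclude that pools of the same number were handled together. A replicate block raised the calls to 77 and the called members to 2, and it turned the log2 fold changes of Klf10 to 0.28, Sp1 to 0.023, Sp2 to -0.28 and Sp3 to 0.75. The median of all genes was 0.018, and it shifted to 0.26 with the block and 0.39 with voom, against which those values are to be read. Voom turned Klf10 to 0.65, Sp1 to 0.032 and Sp3 to 2.88. Sp2, at 0.11, turned to -0.026 by DESeq2, to -0.025 by RLE scaling and to -0.038 by totals alone. Divided by macrophage marker reads, the log2 ratios of means of Klf3 and Klf9 turned to -0.97 and -0.092, and those of Klf2, Klf4, Klf6, Klf7, Klf10 and Klf13 were 1.33, 1.16, 0.54, -2.16, -1.15 and -1.47. With 1 library left out, fold changes crossed 0 for Klf3 (-0.29 to 0.51), Klf9 (-0.36 to 5.32), Klf10 (-0.78 to 0.78), Klf11 (-0.56 to 1.04), Klf16 (-0.049 to 6.51), Sp1 (-0.67 to 0.71), Sp2 (-1.18 to 6.14) and Sp3 (-2.90 to 8.42). Klf2, Klf4, Klf6, Klf7 and Klf13 kept their direction in every alternative listed. Without the filter Klf5 was tested and called, with an adjusted p of 0.0251. The cause of these differences was not tested. With 3 pools a group the common biological coefficient of variation was 1.26, and the log2 fold change of Klf9 had an SE of 2.40. The size of difference that such data can resolve was not tested.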
